A study of Homo sapiens with 12 samples.

Results

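Collagen chains, laminin chains and 12 further matrix genes were examined in SK-OV-3 cells, an established human ovarian cancer line. The genes were taken by symbol: every collagen chain gene, every laminin chain gene, and FN1, SPP1, MFAP2, MFAP5, FBN1, FBN2, THBS1, SPARC, TNC, TIMP1, TIMP2 and TIMP3. This gave 68 of 59391 gene symbols, namely 44 collagen chains, 12 laminin chains, 3 TIMPs and 9 other genes. Cells, labelled diploid in genotype, were exposed for 24 h to both drugs together (the combination), to doxorubicin alone, to IN10018 alone, or to DMSO, the solvent control, and 3 libraries were made per treatment, 12 in all. Doxorubicin was used at 300 nM and IN10018 at 3 μM, in the combination as well as alone. Doxorubicin, an anthracycline, traps topoisomerase II on DNA, and IN10018 is an inhibitor of focal adhesion kinase (FAK). The study asked how the combination of both drugs acts on tumor cells. One cell line without stromal or immune cells was used, so the RNA shows what the tumor cells themselves transcribe. The sources used here do not say if replicates were grown as separate cultures, so the p-values measure the spread between these libraries, which may be technical.

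The extracellular matrix is built from a few protein families. Fibrillar collagens form cables in connective tissue. Type IV collagen and laminins form the networks of the basement membrane, the sheet on which epithelial cells sit, and each is secreted as a trimer of different chains. Fibronectin and laminins are bound on the cell by integrins, and FAK is the kinase that is recruited where integrins cluster. Matricellular proteins such as osteopontin and thrombospondin modulate cell behavior rather than carrying load, and TIMPs inhibit the metalloproteinases that cut the matrix. Carcinoma cells can produce much of this material themselves.

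Promoter sequence is shown for COL4A1, COL4A2, COL6A2, LAMB3 and SPP1, which are some of the genes called below. The sequences are from RefSeq (GRCh38.p14), which matched 20 of the 26 genes that were tested, and each run ends at the base before the RefSeq start. Capitals mark GGGCGG (the GC box letters), TATAAA (the TATA box letters) and TGANTCA (the letters AP-1 factors bind), searched on both strands, so that CCGCCC is GGGCGG on the other strand. COL4A1 and COL4A2, which encode the 2 chains of the most common type IV collagen trimer, start 127 bases apart on opposite strands of chromosome 13, and the whole stretch between the starts is given on the plus strand (chr13:110307158-110307283). COL6A2 (chr21:46097862-46098111, plus strand) carries a TATA box and GC boxes on both sides of it. For LAMB3, which has 3 RefSeq windows, the one with an AP-1 match is given (chr1:209651375-209651624, minus strand). SPP1 (chr4:87975464-87975713, plus strand) holds none of these letters.
COL4A1 and COL4A2: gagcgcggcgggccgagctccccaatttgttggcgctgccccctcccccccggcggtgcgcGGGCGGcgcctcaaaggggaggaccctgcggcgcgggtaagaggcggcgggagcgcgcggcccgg
COL6A2: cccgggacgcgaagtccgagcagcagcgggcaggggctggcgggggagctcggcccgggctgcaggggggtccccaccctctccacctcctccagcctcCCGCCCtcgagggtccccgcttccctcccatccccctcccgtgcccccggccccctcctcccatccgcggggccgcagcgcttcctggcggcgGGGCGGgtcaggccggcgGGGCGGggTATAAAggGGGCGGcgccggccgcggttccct
LAMB3: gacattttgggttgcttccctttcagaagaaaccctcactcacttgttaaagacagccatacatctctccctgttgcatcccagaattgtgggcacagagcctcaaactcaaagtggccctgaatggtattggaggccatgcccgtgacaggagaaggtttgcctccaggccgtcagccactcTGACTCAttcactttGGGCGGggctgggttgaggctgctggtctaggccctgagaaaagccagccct
SPP1: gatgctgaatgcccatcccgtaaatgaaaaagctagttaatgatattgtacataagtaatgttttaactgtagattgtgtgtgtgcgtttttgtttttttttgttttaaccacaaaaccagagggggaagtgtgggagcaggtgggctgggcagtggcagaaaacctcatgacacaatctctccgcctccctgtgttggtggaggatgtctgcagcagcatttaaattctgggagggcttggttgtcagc

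The AP-1 letters of LAMB3 begin 67 bases before its start, and LAMA3, which encodes its partner chain, holds them at 125 and 69 bases before the start. Over windows of 300 bases, GGGCGG was found in 20 of 24 windows of the tested matrix genes and in 45.0% of 35116 RefSeq windows. TATAAA was found in 4 of the 24 and in 11.5% of all, TGANTCA in 2 of the 24 and in 7.71% of all, and CACGTG (the E-box letters) in 0 of the 24 and in 7.26% of all. TATAAA and GGGCGG of COL6A2 lie side by side without overlap. These are matches of letters, and binding was not measured.

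The values of each library are FPKM, fragments scaled to transcript length and library size. Depth was 8033951 to 12901505 reads per library, of which the 68 genes took 0.136% to 0.286%. Keratins, ERBB2 and CD24 stood at 16.6 FPKM or more in every library, whereas CDH1, an epithelial cadherin, lay between 0.0867 and 0.381 FPKM. Of 10 markers of the epithelial line 9 were kept by the filter on low values, and their summed level was 412 to 817 FPKM in the combination, 481 to 622 in doxorubicin, 605 to 745 in IN10018 and 495 to 538 in DMSO. Of 8 fibroblast markers only LUM was kept, with a summed level of the list of 7.98 to 9.79 FPKM in the combination, 5.93 to 7.75 in doxorubicin, 10.9 to 12.7 in IN10018 and 11.5 to 16.5 in DMSO, and PDGFRA, PDGFRB and DCN stayed under 0.14 FPKM. None of 5 endothelial and 6 immune markers was kept, with TEK and CD68 listed at 0, and their sums reached at most 0.642 and 0.129 FPKM. Along the main axis on which libraries of one treatment differed, which held 55.4% of that spread, 3 libraries stood apart with scores of 25.3 to 36.7, against −24.2 to 6.56 for the others. They were combination replicate 2, IN10018 replicate 1 and DMSO replicate 2. Combination replicate 1 had the largest share of FPKM in small RNA genes, 37.6%, against 13.95% to 28.7% in the other libraries. For each comparison with DMSO, doxorubicin or IN10018, the calls made without these libraries are given below.

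Of the 68 genes 26 were kept, which means at least 1 FPKM in at least 3 libraries: 11 collagen chains, 7 laminin chains, TIMP1, TIMP2 and 6 others. All genes of the series were kept less often, 11301 of 59391 (19.0%, against 38.2% of the matrix genes). The highest levels belonged to TIMP1, SPP1, TIMP2, MFAP5, COL18A1, LAMC1, LAMB3 and COL12A1, each averaging at least 10 FPKM over the 12 libraries. The fewest reads of a kept gene in a library were 16, for COL17A1. This gene reached 1 FPKM only in the combination libraries. Of the 42 genes that were not kept, 10 reached 0.3 FPKM in some library: TNC (at most 1.37), COL6A1 (1.19), COL3A1 (1.16), COL4A3 (1.14), COL4A4 (1.08), TIMP3 (1.03), COL9A2 (0.717), COL1A2 (0.624), MFAP2 (0.486) and COL23A1 (0.414). The other 32 stayed at or below 0.281 FPKM and 1 of them, COL14A1, was at 0 in every library. In FPKM, which is per length, the means of COL18A1, LAMC1, LAMB3, COL12A1, COL5A1, COL4A1 and COL4A2 lay above those of the classical interstitial chains COL1A1, COL1A2 and COL3A1 under every treatment.

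**Figure D1:**
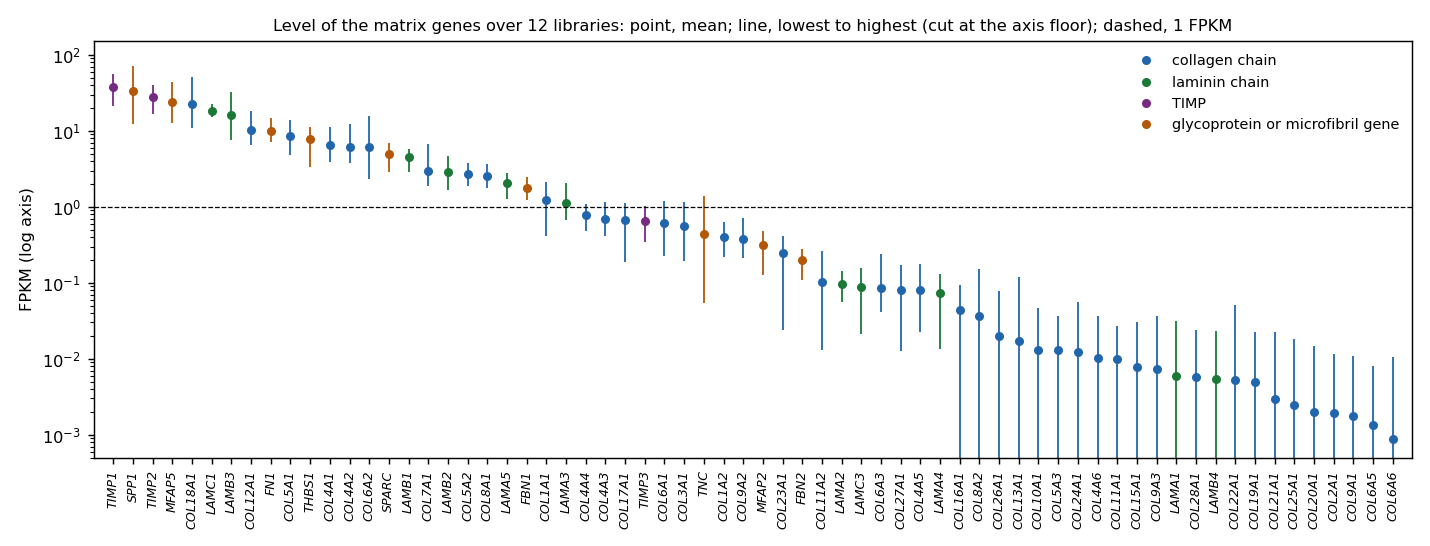
Mean FPKM over 12 libraries (points, log axis) and lowest to highest library (lines, cut at the axis floor) of the matrix genes above 0 (1 kept gene is not shown), colored by family, with the 1 FPKM filter as a dashed line. TIMP1 and SPP1 lie at the left end, and 42 of the 68 genes did not pass the filter.

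Under the combination, 9 of the 26 genes passed the test against DMSO (limma over all genes kept, Benjamini-Hochberg adjusted p under 0.05), where 15.6% of all genes tested passed. The 7 higher genes were COL6A2, COL18A1, LAMB3, COL4A2, COL7A1, COL4A1 and COL17A1 (14.3% of all genes were called higher), and the 2 lower ones were MFAP5 and SPP1 (1.28% were called lower). COL17A1 was kept by the filter only through the combination libraries. Doxorubicin alone against DMSO gave 3 calls of 26, where 8.02% of all genes passed: LAMB3 was higher (5.92% of all) and MFAP5 and SPP1 were lower (2.1% of all). Under IN10018 alone 0 of 26 passed with limma and 0 with voom, where 0.00885% of all genes passed, and 1 of 26 was under an unadjusted p of 0.05, where 3.66% of all genes were. In these bulk libraries, fewer cells of a kind and less RNA per cell cannot be told apart.

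Separation of the libraries was counted as well. In the combination 9 of the 26 genes were higher in all 3 libraries than in any DMSO library, where 24.8% of all genes were, and 2 were lower, where 4.44% were. In doxorubicin 3 were higher, where 19% of all genes were, and 6 lower, where 12.2% were, and in IN10018 COL4A2, COL5A1 and LAMB2 were higher, where 3.88% of all genes were, and 0 lower, where 3.45% were. Under median-ratio scaling the counts of higher and lower genes were 8 and 5 in the combination, where 14.5% and 13.5% of all genes were higher and lower. They were 3 and 8 in doxorubicin, with 18.3% and 17.4% of all genes, and 7 and 0 in IN10018, with 3.4% and 5.03%.

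The median log2 fold change of the 26 genes was 0.23 in the combination against DMSO, where the median of all genes was 0.20. It was −0.09 in doxorubicin, with −0.01 over all genes, and 0.14 in IN10018, with 0.00 over all genes. The 26 genes as a group therefore lay close to the median of all genes in the combination. Scaling the libraries by median ratios, so that the typical gene is level between libraries, moved the medians of the combination against DMSO to −0.03 for the 26 genes and −0.03 for all genes. The calls then became 3 higher (COL6A2, COL18A1 and LAMB3) and 3 lower (MFAP5, SPP1 and SPARC) in place of 7 and 2. Over all genes the split moved from 1616 higher and 145 lower to 831 and 448. Leaving out combination replicate 2 or 3 or any one DMSO library left 4 calls, COL6A2, COL18A1 and LAMB3 higher and MFAP5 lower. Over all genes these fits gave 710 to 1371 calls, where the fit of all 12 libraries gave 1761. Leaving out combination replicate 1 gave 10, where COL5A1 and LAMB2 were added as higher and SPP1 was lost (2407 over all genes). Without the 3 libraries that stand apart, 4 of the 26 were called, COL6A2 and LAMB3 higher and MFAP5 and SPP1 lower (1567 over all genes). Doxorubicin against DMSO gave 7 calls without combination replicate 1, COL18A1, COL6A2 and LAMB3 higher and COL1A1, MFAP5, SPP1 and TIMP1 lower, where 1284 genes were called over all. Without the 3 libraries it gave 8, COL6A2 and LAMB3 higher and COL1A1, LAMB1, MFAP5, SPARC, SPP1 and TIMP2 lower, where 3021 were. IN10018 against DMSO gave 0 in both.

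**Figure D2:**
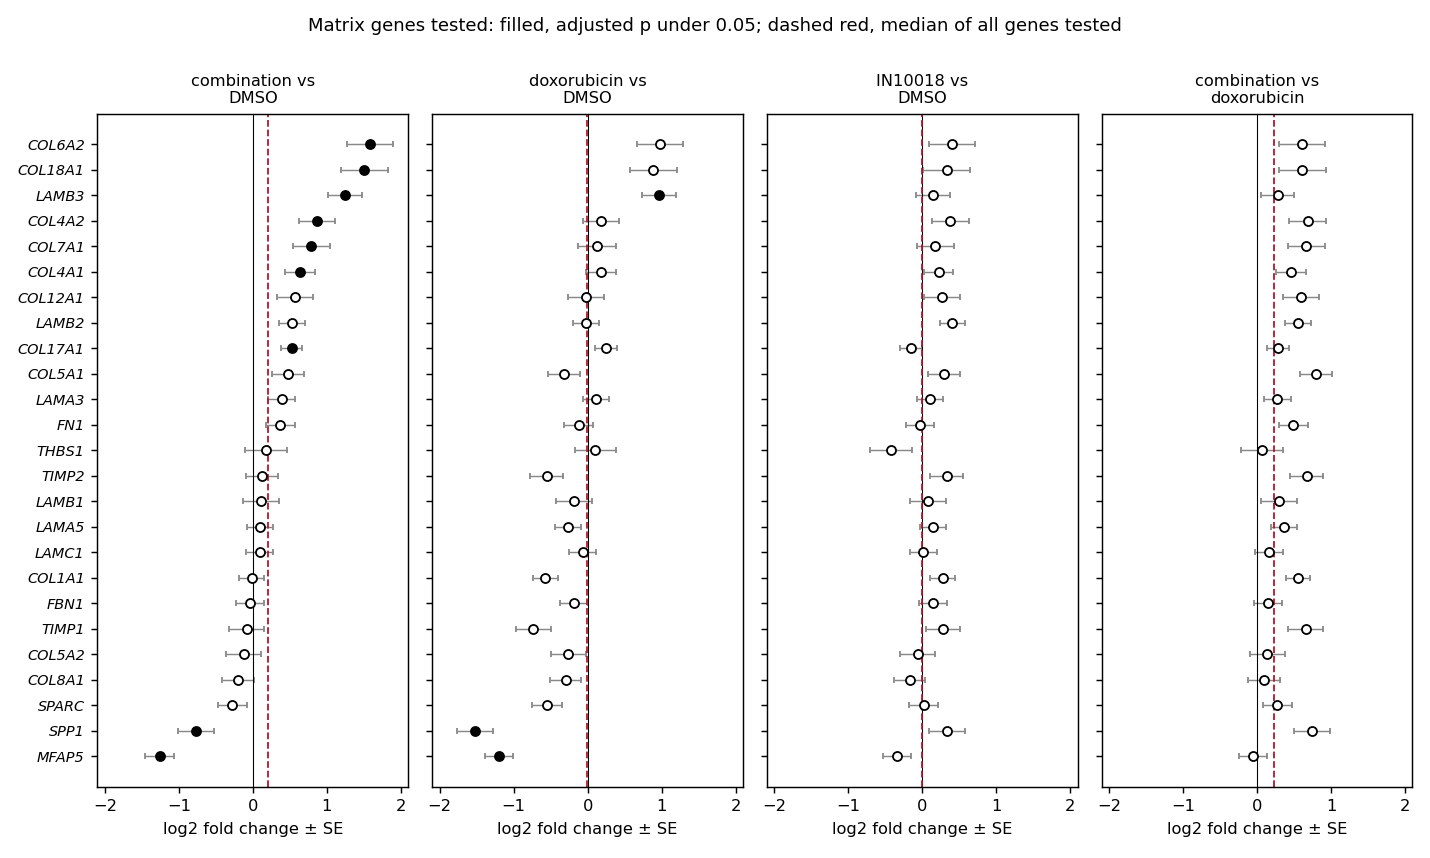
Log2 fold change on log2(FPKM + 1) with its standard error for matrix genes tested, in 4 comparisons (1 of the 26 is not shown). Filled points have an adjusted p under 0.05, and the dashed line is the median of all genes tested (0.20 in the combination against DMSO). COL6A2, COL18A1 and LAMB3 stand at the top and SPP1 and MFAP5 at the bottom in the combination.

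Among the laminin chains described here, LAMB3 was the one that passed the test. It encodes the β3 chain, a partner of α3 (LAMA3) in a laminin that anchors epithelial cells to the basement membrane. LAMB3 (ENSG00000196878, GRCh38 chromosome 1, 209614870 to 209652466, minus strand) had 17.7, 24.4 and 32.1 FPKM in the combination, 21.7, 20.1 and 17.5 in doxorubicin, 10.4, 10.47 and 11.2 in IN10018 and 9.43, 7.49 and 12.4 in DMSO. All 6 libraries with doxorubicin lay above all 6 without it. Against DMSO the log2 fold change was 1.24 ± 0.23 (SE, adjusted p = 0.0034 by limma) in the combination and 0.96 ± 0.23 (adjusted p = 0.021) in doxorubicin. Against IN10018 the combination was higher by 1.10 ± 0.23 (adjusted p = 0.0055), and against doxorubicin by 0.28 ± 0.23 (adjusted p = 0.50), a difference that did not pass. The calls of the combination against DMSO and against IN10018 held in all 24 alternatives, and that of doxorubicin in 18, being lost without the filter on low values and without DMSO replicate 1, DMSO replicate 2 or any one doxorubicin library (lowest and highest log2 fold change over the alternatives 0.81 and 1.14).

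LAMA3 did not pass the test. It averaged 1.49 ± 0.49 FPKM in the combination, 1.05 ± 0.28 in doxorubicin, 1.04 ± 0.23 in IN10018 and 0.892 ± 0.222 in DMSO (SD, n = 3 each), with a log2 fold change of 0.39 ± 0.18 in the combination against DMSO (adjusted p = 0.17 by limma).

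LAMC1, the γ1 chain shared by most laminins, was the most abundant laminin message on average over the 12 libraries. It had 17.6, 18.7 and 22.6 FPKM in the combination, 19.7, 17.3 and 15.4 in doxorubicin, 17.4, 19.6 and 18.3 in IN10018 and 18.7, 15.2 and 21.3 in DMSO. On the values as deposited these 4 groups overlapped throughout, and the log2 fold change of the combination against DMSO was 0.09 ± 0.19 (adjusted p = 0.79 by limma). Under median-ratio scaling the combination libraries all lay below those of DMSO and those of IN10018. LAMB2, the β2 chain known from the kidney filter and the synapse, had 2.88, 3.82 and 4.62 FPKM in the combination, 2.56, 2.51 and 1.67 in doxorubicin, 3.24, 3.34 and 3.44 in IN10018 and 2.42, 2.04 and 2.37 in DMSO. Both treatments with IN10018 lay above DMSO in every library, although no call was reached. As a log2 fold change against DMSO, LAMB2 reached 0.53 ± 0.17 in the combination (adjusted p = 0.055) and 0.41 ± 0.17 in IN10018 (adjusted p = 1 by limma). In the combination it was called without combination replicate 1 (0.67, adjusted p = 0.015), and stood at 0.06 (adjusted p = 0.75) with GC content and length corrected for. The exons of LAMB2 have 60.3% GC and those of LAMC1 48.7%. The ratio of LAMB2 to LAMC1 within a library, which does not change with the scaling of libraries but was not corrected for GC content, was 0.164 to 0.205 in the combination, 0.109 to 0.145 in doxorubicin, 0.170 to 0.188 in IN10018 and 0.111 to 0.135 in DMSO. Libraries with and without IN10018 did not overlap in it. Such ratios were compared by their ranges, and no test was run on them. LAMB1 (β1) averaged 4.86 ± 0.83, 3.76 ± 0.38, 4.86 ± 1.55 and 4.57 ± 1.497 FPKM, and LAMA5 (α5) 2.32 ± 0.66, 1.55 ± 0.29, 2.40 ± 0.32 and 2.06 ± 0.10 FPKM in the combination, doxorubicin, IN10018 and DMSO (SD, n = 3 each). The ratios of LAMB1 and of LAMA5 to LAMC1 overlapped between each treatment and DMSO.

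**Figure D3:**
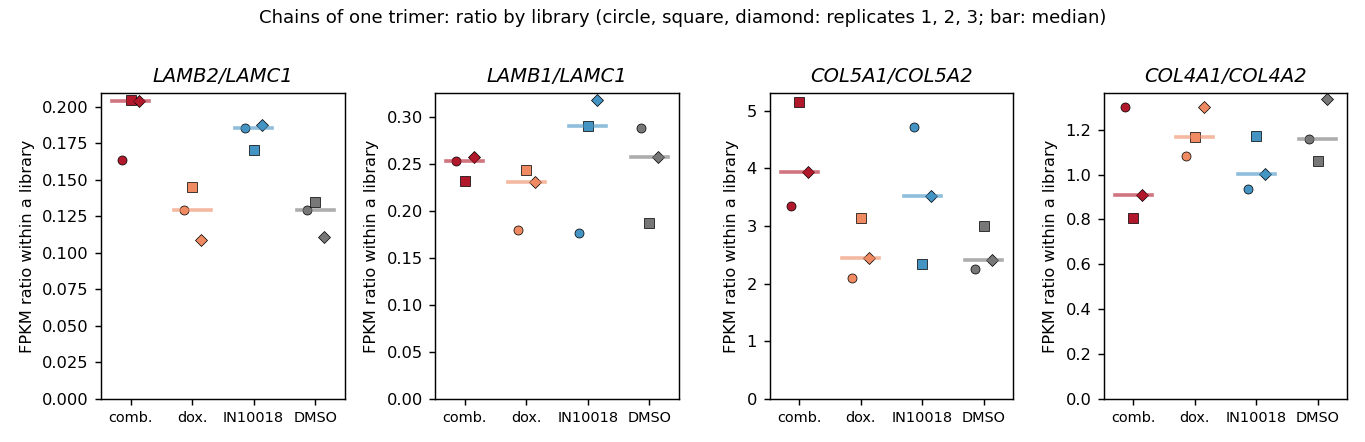
FPKM ratio of chains of one trimer within each library (points by replicate, bar for the median), for the combination, doxorubicin, IN10018 and DMSO. LAMB2/LAMC1 is at least 0.164 with IN10018 and at most 0.145 without it.

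COL18A1, COL4A1 and COL4A2, the basement membrane collagens that were tested, were all higher in the combination than in DMSO. COL18A1 (ENSG00000182871, chromosome 21, 45405137 to 45513720), whose C-terminal fragment is endostatin, had 17.5, 49.4 and 51.4 FPKM in the combination, 23.7, 22.4 and 22.6 in doxorubicin, 17.3, 13.0 and 15.6 in IN10018 and 11.01, 11.6 and 13.1 in DMSO. Combination replicate 1 lay below the doxorubicin libraries, and the other 2 above every library of the series. The log2 fold change of the combination was 1.502 ± 0.317 against DMSO (adjusted p = 0.0071 by limma) and 1.17 ± 0.32 against IN10018 (adjusted p = 0.023). That of doxorubicin against DMSO was 0.89 ± 0.32 (adjusted p = 0.11), with all 3 libraries above DMSO, and it was called in 2 of 24 alternatives, without combination replicate 1 (adjusted p = 0.0038) and with only the groups compared. The call against DMSO was lost without the 3 libraries that stand apart (1.26, adjusted p = 0.062). The call against IN10018 was lost under median-ratio scaling (0.87, adjusted p = 0.10) and in 8 further alternatives, among them those without combination replicate 2 or 3 or IN10018 replicate 2 or 3. Of the exon bases of COL18A1, 16.4% are shared with SLC19A1 on the other strand. The library kit marks strand, but the sources used here do not say if the counting used it, and the part of this overlap in the result was not tested.

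Type IV collagen is the scaffold of all basement membranes. COL4A1 had 6.77, 7.85 and 11.2 FPKM in the combination, 6.43, 6.28 and 5.01 in doxorubicin, 5.45, 6.49 and 6.27 in IN10018 and 5.53, 3.94 and 5.89 in DMSO. COL4A2 had 5.20, 9.75 and 12.3 FPKM in the combination, 5.93, 5.38 and 3.84 in doxorubicin, 5.82, 5.53 and 6.24 in IN10018 and 4.77, 3.71 and 4.40 in DMSO. For both genes the 3 combination libraries lay above the 3 DMSO libraries, with replicate 1 the lowest. Combination against DMSO gave a log2 fold change of 0.64 ± 0.20 for COL4A1 (adjusted p = 0.048) and 0.86 ± 0.25 for COL4A2 (adjusted p = 0.032 by limma). Under median-ratio scaling these became 0.37 (adjusted p = 0.11) and 0.59 (adjusted p = 0.091), and over all 24 alternatives the calls held in 5 and in 11. Without the 3 libraries that stand apart they were 0.54 (adjusted p = 0.12) and 0.70 (adjusted p = 0.17). The ratio of COL4A1 to COL4A2, whose starts adjoin, was 0.805 to 1.30 in the combination, 1.08 to 1.30 in doxorubicin, 0.937 to 1.17 in IN10018 and 1.06 to 1.34 in DMSO, so that all groups overlapped.

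COL7A1 and COL17A1 belong to the structures that fasten epithelium to the underlying tissue, the anchoring fibrils and the hemidesmosomes. COL7A1 had 2.35, 5.32 and 6.63 FPKM in the combination, 2.67, 2.72 and 1.98 in doxorubicin, 3.01, 2.20 and 2.50 in IN10018 and 2.05, 2.57 and 1.86 in DMSO. One combination library lay within the DMSO range. COL7A1 reached a log2 fold change of 0.79 ± 0.25 against DMSO (adjusted p = 0.049 by limma), and the call held in 3 of 23 alternatives. It was lost without the 3 libraries that stand apart (0.78, adjusted p = 0.13). COL17A1 had 1.10, 1.10 and 1.13 FPKM in the combination, 0.963, 0.748 and 0.535 in doxorubicin, 0.189, 0.427 and 0.353 in IN10018 and 0.494, 0.328 and 0.599 in DMSO. It rested on 16 to 102 reads per library, and the combination lay above every other library. Only the combination libraries reached 1 FPKM, so the gene passed the filter through that group alone. Its tests in the combination are therefore not independent of the filter. Without the filter the call against DMSO was lost and that against IN10018 held. COL17A1 in the combination had a log2 fold change of 0.52 ± 0.15 against DMSO (adjusted p = 0.029), a call that held in 9 of 23 alternatives but not without those 3 libraries (0.45, adjusted p = 0.093), and 0.68 ± 0.15 against IN10018 (adjusted p = 0.0069), which held in 22 of 23.

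**Figure D4:**
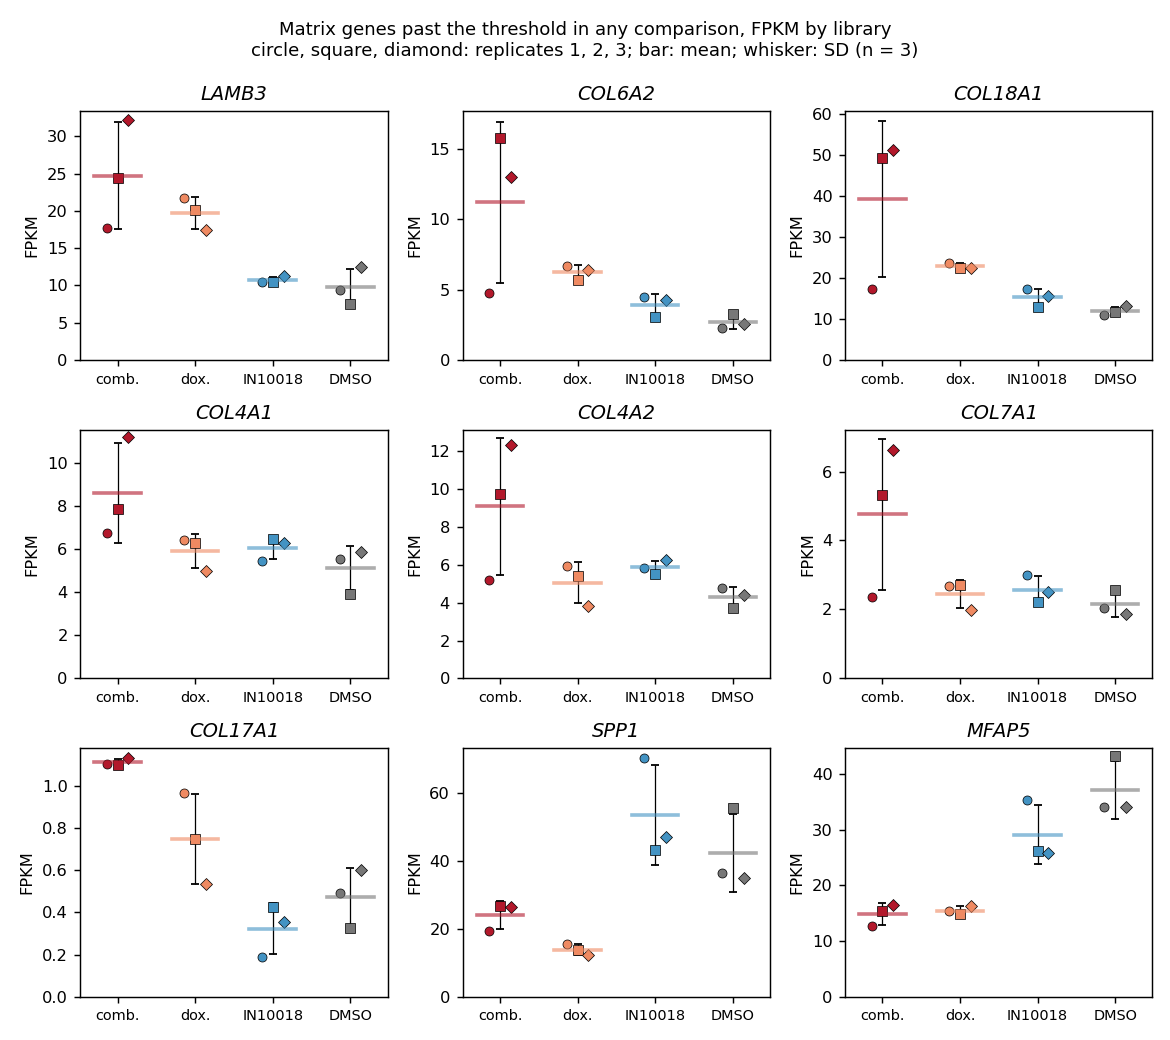
FPKM in each library of the 9 matrix genes past the threshold in any comparison, for the combination, doxorubicin, IN10018 and DMSO (symbols by replicate, bar for the mean, whisker for the SD, n = 3). Combination replicate 1 (circle) is the lowest combination library in COL6A2 (4.76 FPKM), COL18A1 and COL7A1, and MFAP5 lies at 12.8 to 16.6 FPKM in the libraries with doxorubicin.

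COL6A2 had the largest fold change of the 26 genes in the combination. It encodes a chain of collagen VI, which forms beaded microfilaments around cells. COL6A2 (ENSG00000142173, chromosome 21, 46098097 to 46132849, plus strand) had 4.76, 15.8 and 13.0 FPKM in the combination, 6.68, 5.70 and 6.40 in doxorubicin, 4.45, 3.05 and 4.28 in IN10018 and 2.29, 3.25 and 2.59 in DMSO. All libraries with doxorubicin lay above those without it, although combination replicate 1 exceeded the highest IN10018 library by little. The log2 fold change of the combination was 1.59 ± 0.31 against DMSO (adjusted p = 0.0048 by limma) and 1.18 ± 0.31 against IN10018 (adjusted p = 0.020), and that of doxorubicin against DMSO was 0.97 ± 0.31 (adjusted p = 0.074). The last was called in 5 of 24 alternatives, among them without combination replicate 1 (adjusted p = 0.0038) and without the 3 libraries that stand apart (1.08, adjusted p = 0.033). The call against DMSO held in all 24 alternatives, with log2 fold changes of 0.85 to 2.06. The call against IN10018 was lost in 9, among them median-ratio scaling (0.90, adjusted p = 0.092) and the fit without the 3 libraries that stand apart (0.96, adjusted p = 0.084). Its partner COL6A1, which was not kept, averaged 0.960 FPKM in the combination, 0.620 in doxorubicin, 0.497 in IN10018 and 0.362 in DMSO, and COL6A3 stayed at or below 0.236 FPKM.

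GC content was above the median in these collagen genes, though by different amounts. The exons of COL18A1 have 67.2% GC, those of COL6A2 66.4%, COL7A1 64.8%, COL4A2 62.0%, COL17A1 55.9% and COL4A1 55.4%. The median was 52.2% over the 26 genes and 47.9% over all genes kept. Once GC content and length were corrected for, COL6A2 was at 0.85 (adjusted p = 0.0093) and COL18A1 at 0.80 (adjusted p = 0.020) in the combination against DMSO. COL4A1 (0.34), COL4A2 (0.36), COL7A1 (0.22) and COL17A1 (0.19) did not pass under the correction, with adjusted p of 0.087, 0.087, 0.38 and 0.37. LAMB3, at 58.9% GC, kept 0.79 (adjusted p = 0.0064), and MFAP5, at 39.8% GC, stood at −1.51 (adjusted p = 0.0015). The correction also added calls in this comparison, COL12A1 higher (0.47, adjusted p = 0.048) and LAMA5 (−0.51, adjusted p = 0.017) and SPARC (−0.51, adjusted p = 0.014) lower, where LAMA5 was at 0.10 without it.

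The other collagen chains tested, COL12A1, COL1A1, COL5A1, COL5A2 and COL8A1, did not pass the test against DMSO. COL12A1, which sits on the surface of collagen fibrils, had 10.2, 11.96 and 18.4 FPKM in the combination, 9.54, 9.35 and 6.54 in doxorubicin, 8.37, 11.9 and 11.4 in IN10018 and 9.34, 6.55 and 9.96 in DMSO. The combination lay above DMSO in every library, with a log2 fold change of 0.57 ± 0.24 (adjusted p = 0.13 by limma), called in 1 of 24 alternatives. COL1A1, the main chain of bone and skin collagen, averaged 1.28 ± 0.24 FPKM in the combination, 0.553 ± 0.124 in doxorubicin, 1.82 ± 0.50 in IN10018 and 1.31 ± 0.21 in DMSO (SD, n = 3 each). All 3 doxorubicin libraries lay below those of the other treatments, and the log2 fold change of doxorubicin against DMSO, −0.57 ± 0.17, fell just short of a call (adjusted p = 0.052). It was called in 12 of 23 alternatives, median-ratio scaling among them. COL5A1, a chain of the collagen that nucleates fibrils, averaged 11.03 ± 3.20, 5.82 ± 1.01, 9.33 ± 0.79 and 7.48 ± 1.10 FPKM, and its partner COL5A2 2.68 ± 0.69, 2.35 ± 0.74, 2.86 ± 0.97 and 3.01 ± 0.82 FPKM in the combination, doxorubicin, IN10018 and DMSO. The ratio of COL5A1 to COL5A2 was 3.34 to 5.15 in the combination, 2.104 to 3.14 in doxorubicin, 2.34 to 4.72 in IN10018 and 2.26 to 3.00 in DMSO. The combination did not overlap with doxorubicin or with DMSO in it. This ratio was not corrected for GC content, which is 60.3% in the exons of COL5A1 and 47.9% in those of COL5A2. In the combination, IN10018 and DMSO its highest value belonged to the library that stood apart. COL8A1, known from vessel walls and the cornea, averaged 2.52 ± 0.97, 2.24 ± 0.56, 2.50 ± 0.27 and 2.99 ± 0.75 FPKM in the same order.

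The genes that fell were MFAP5 and SPP1. MFAP5 encodes a glycoprotein of elastic microfibrils and SPP1 encodes osteopontin, a secreted ligand of integrins and CD44. MFAP5 (ENSG00000197614, chromosome 12, 8637346 to 8662888, minus strand) had 12.8, 15.3 and 16.6 FPKM in the combination, 15.4, 14.8 and 16.3 in doxorubicin, 35.3, 26.2 and 25.8 in IN10018 and 34.2, 43.2 and 34.0 in DMSO. The highest library with doxorubicin lay below the lowest without it. Against DMSO the log2 fold change was −1.26 ± 0.19 in the combination (adjusted p = 0.0010 by limma) and −1.20 ± 0.19 in doxorubicin (adjusted p = 0.0023), and that of the combination against IN10018 was −0.92 ± 0.19 (adjusted p = 0.0054). The combination and doxorubicin alone differed by −0.06 ± 0.19 (adjusted p = 0.84). All 3 calls held in each of the 24 alternatives.

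SPP1 (ENSG00000118785, chromosome 4, 87975650 to 87983426, plus strand) had 19.3, 26.6 and 26.4 FPKM in the combination, 15.4, 13.8 and 12.3 in doxorubicin, 70.3, 43.3 and 47.0 in IN10018 and 36.5, 55.6 and 35.0 in DMSO. The doxorubicin libraries were the lowest, the combination lay between them and DMSO, and IN10018 overlapped with DMSO. The log2 fold change against DMSO was −1.52 ± 0.24 in doxorubicin (adjusted p = 0.0024 by limma) and −0.77 ± 0.24 in the combination (adjusted p = 0.046). For the combination against IN10018 it was −1.10 ± 0.24 (adjusted p = 0.0074). The calls of doxorubicin against DMSO and of the combination against IN10018 held in all 24 alternatives, while that of the combination against DMSO held in 9. It was lost without combination replicate 1 (−0.63, adjusted p = 0.11) and held without the 3 libraries that stand apart (−0.64, adjusted p = 0.048). The combination was higher than doxorubicin alone in every library, by 0.75 ± 0.24 (adjusted p = 0.25 by limma), and this difference did not pass.

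The other glycoproteins did not pass the test. FN1, fibronectin, averaged 12.4 ± 2.1 FPKM in the combination, 8.50 ± 1.43 in doxorubicin, 9.06 ± 1.07 in IN10018 and 9.33 ± 1.61 in DMSO (SD, n = 3 each), and its lowest combination library, 10.7 FPKM, lay just below the highest DMSO library, 10.9 FPKM. THBS1, thrombospondin-1, averaged 9.07 ± 2.20, 8.47 ± 0.51, 5.81 ± 2.19 and 8.09 ± 2.76 FPKM, SPARC 4.53 ± 0.53, 3.61 ± 0.84, 5.77 ± 0.39 and 5.81 ± 1.57 FPKM, and FBN1, fibrillin-1, 1.74 ± 0.48, 1.45 ± 0.14, 2.097 ± 0.463 and 1.82 ± 0.53 FPKM in that order. SPARC in doxorubicin against DMSO was at −0.55 ± 0.20 (adjusted p = 0.12 by limma) and was called lower in 6 of 24 alternatives. TNC, tenascin-C, was below the filter and averaged 0.872 FPKM in the combination, 0.567 in doxorubicin, 0.189 in IN10018 and 0.133 in DMSO, with at most 171 reads in a library. It was called higher in the combination than in DMSO when the filter was left out.

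The protease inhibitors TIMP1 and TIMP2 were among the most abundant matrix messages. TIMP1 had 25.0, 44.3 and 45.2 FPKM in the combination, 26.05, 21.3 and 22.1 in doxorubicin, 49.2, 39.2 and 56.1 in IN10018 and 36.8, 41.9 and 38.7 in DMSO. TIMP2 had 25.4, 28.3 and 36.0 FPKM in the combination, 19.8, 18.4 and 16.5 in doxorubicin, 28.6, 35.3 and 40.1 in IN10018 and 31.5, 20.2 and 31.2 in DMSO. For both genes the 3 doxorubicin libraries lay below the 3 DMSO libraries, while the combination overlapped with DMSO. Doxorubicin against DMSO gave a log2 fold change of −0.74 ± 0.24 for TIMP1 (adjusted p = 0.075 by limma) and −0.55 ± 0.22 for TIMP2 (adjusted p = 0.16), and each was called in 5 of 24 alternatives.

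Whether IN10018 adds to doxorubicin was read from the combination against doxorubicin alone. There 0 of the 26 genes passed with limma and 0 with voom, as did 0% of all genes with limma, and 11 of 26 had an unadjusted p under 0.05, where 15.7% of all genes did. Under median-ratio scaling 4 of 26 and 993 of all 11301 genes had one, and with GC content and length corrected for 5 and 1353. On the values as deposited all 11 were higher in the combination: COL5A1 (0.79 ± 0.22), SPP1 (0.75 ± 0.24), COL4A2 (0.68 ± 0.25), TIMP2 (0.67 ± 0.22), COL7A1 (0.66 ± 0.25), TIMP1 (0.66 ± 0.24), COL12A1 (0.59 ± 0.24), COL1A1 (0.56 ± 0.17), LAMB2 (0.55 ± 0.17), FN1 (0.49 ± 0.19) and COL4A1 (0.46 ± 0.20), as log2 fold change ± SE. The lowest adjusted p among these genes was 0.25 by limma. Of the 26 genes 10 were higher in all 3 combination libraries than in any doxorubicin library, where 24.8% of all genes were, and 0 were lower, where 3.25% were. Under median-ratio scaling these counts were 5 and 2, where 8.28% and 8.48% of all genes were higher and lower. The median of the 26 genes was 0.41 with 0.23 over all genes, and 0.18 with 0.01 under median-ratio scaling.

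The count of calls changed with the libraries used. Without combination replicate 1, 7 genes were called higher than in doxorubicin, COL18A1, COL4A2, COL5A1, COL6A2, COL7A1, LAMB2 and TIMP1, and 676 over all genes. Without the 3 libraries that stand apart, 3 other genes were called higher, COL1A1, SPP1 and TIMP2, and 1321 over all genes. The interaction, which asks whether the combination differs from the sum of both single effects on the log2 scale, gave 0 calls of 26 with limma and with voom and 0 of 26 under an unadjusted p of 0.05, where 6.1% of all genes were. Its values were above 0 for 26 of 26 genes and for 8764 of all 11301, with a median of 0.28 and 0.24 over all genes. Under median-ratio scaling they were above 0 for 15 of 26 and for 6110 of all, with a median of 0.01 and 0.03 over all genes.

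Against IN10018 alone, 6 of the 26 genes passed in the combination, where 16.1% of all genes passed. COL17A1, COL18A1, COL6A2 and LAMB3 were higher, where 14.6% of all genes were, and MFAP5 and SPP1 were lower, where 1.43% were. Among the higher genes, COL17A1 was kept by the filter only through the combination libraries. This comparison shares the combination libraries with that against DMSO. By separation of all 3 libraries 7 genes were higher, where 24.6% of all genes were, and 3 lower, where 4.56% were, and under median-ratio scaling 2 and 8, where 15% and 13.2% were. The calls under that scaling were 2 higher (COL17A1 and LAMB3) and 5 lower (MFAP5, SPP1, COL1A1, SPARC and TIMP2), where the split over all genes moved from 1653 higher and 162 lower to 998 and 515. Without combination replicate 1, COL4A2 (0.80, adjusted p = 0.012 by limma) and COL7A1 (0.96, adjusted p = 0.0030) were added, 8 calls with 2207 over all genes. Without the 3 libraries that stand apart 4 were left, COL17A1 and LAMB3 higher and MFAP5 and SPP1 lower, with 2015 over all genes.

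Genes that process, cut or bind these matrix proteins were counted from 4 lists. Against DMSO, 14.3% of all genes were called higher and 1.28% lower in the combination, and 5.92% and 2.1% in doxorubicin, and the counts are read beside these shares. Under median-ratio scaling 831 of all 11301 genes were called higher and 448 lower in the combination. Of enzymes and chaperones that modify or cross-link collagen, 22 of 33 were tested. In the combination 4 (18.2%) were higher than in DMSO and 0 lower, in doxorubicin 0 and 1 (4.55%), and in IN10018 0 and 0. P3H2, a prolyl 3-hydroxylase, averaged 6.28 ± 1.97 FPKM in the combination, 3.83 ± 0.23 in doxorubicin, 3.01 ± 0.65 in IN10018 and 3.07 ± 0.47 in DMSO (SD, n = 3 each), with a log2 fold change of 0.81 ± 0.20 in the combination against DMSO (adjusted p = 0.016 by limma). LOXL2, which cross-links collagen, averaged 11.3 ± 2.2 FPKM in the combination and 6.48 ± 0.74 in DMSO (0.71 ± 0.18, adjusted p = 0.017), and P3H3 5.68 ± 2.95 and 2.14 ± 0.48 FPKM (0.98 ± 0.30, adjusted p = 0.043). CRTAP, a partner of prolyl 3-hydroxylase, averaged 9.78 ± 1.28 FPKM in doxorubicin and 16.4 ± 0.8 in DMSO (−0.69 ± 0.17, adjusted p = 0.024). Under median-ratio scaling LOXL2 (0.42) and P3H3 (0.73) were no longer called, and the split in the combination was 1 higher and 1 lower. With GC content and length corrected for, it was 1 higher and 2 lower in the combination, and 0 and 6 (27.3%) in doxorubicin. Of all 11301 genes, that correction called 1254 higher and 1074 lower in the combination, and 1273 and 1171 in doxorubicin.

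Of proteases that cut the matrix, 22 of 37 were tested. In the combination 6 (27.3%) were higher than in DMSO and 4 (18.2%) lower, in doxorubicin 2 (9.09%) and 3 (13.6%), and in IN10018 0 and 0. PLAU, the urokinase that activates plasminogen, averaged 44.7 ± 9.1 FPKM in the combination, 29.5 ± 3.0 in doxorubicin, 13.1 ± 1.9 in IN10018 and 13.3 ± 1.4 in DMSO (SD, n = 3 each). Its log2 fold change against DMSO was 1.67 ± 0.20 in the combination (adjusted p = 2.1e-04 by limma) and 1.09 ± 0.20 in doxorubicin (adjusted p = 0.0048). ADAMTS1, which cleaves proteoglycans, averaged 4.95 ± 1.51, 3.93 ± 0.25, 1.18 ± 0.65 and 1.28 ± 0.52 FPKM in that order and was called in both treatments with doxorubicin. MMP15, a membrane-type metalloproteinase, averaged 5.43 ± 1.94 FPKM in the combination and 1.79 ± 0.15 in DMSO (1.16 ± 0.23, adjusted p = 0.0054). MMP13, a collagenase, was lower, with 2.15 ± 0.52, 1.76 ± 0.59, 3.96 ± 0.80 and 5.10 ± 0.97 FPKM. Its log2 fold change against DMSO was −0.95 ± 0.20 in the combination (adjusted p = 0.0074) and −1.15 ± 0.20 in doxorubicin (adjusted p = 0.0045). Each of these kept its direction and its call against DMSO under median-ratio scaling, where the split in the combination was 4 higher and 5 lower. With GC content and length corrected for, MMP15 (0.46, adjusted p = 0.054) lost its call.

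Of 54 other basement membrane, proteoglycan and matricellular genes 22 were tested. In the combination 3 (13.6%) were higher than in DMSO and 0 lower, in doxorubicin 2 (9.09%) and 1 (4.55%), and in IN10018 0 and 0. CCN1, a matricellular ligand of integrins, averaged 16.1 ± 3.1 FPKM in the combination, 13.9 ± 1.0 in doxorubicin, 4.63 ± 0.97 in IN10018 and 5.40 ± 0.99 in DMSO (SD, n = 3 each). It was called higher than DMSO in the combination (1.42 ± 0.20, adjusted p = 6.4e-04 by limma) and in doxorubicin (1.23 ± 0.20, adjusted p = 0.0027), also under median-ratio scaling. FBLN2 and FBLN1, the fibulins, were called in the combination (1.08 ± 0.29 and 0.52 ± 0.16) and lost the call under median-ratio scaling (0.82 and 0.32). LUM, a proteoglycan that was also the one fibroblast marker kept, averaged 6.91 ± 1.06 FPKM in doxorubicin and 13.2 ± 2.5 in DMSO (−0.84 ± 0.18, adjusted p = 0.014), and TINAGL1 averaged 6.92 ± 1.57 and 2.40 ± 1.43 FPKM (1.28 ± 0.32, adjusted p = 0.027).

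Of 18 matrix receptors other than integrins 14 were tested. In the combination 2 (14.3%) were higher than in DMSO and 1 (7.14%) lower, in doxorubicin 0 and 1 (7.14%), and in IN10018 0 and 0. GPC6, a glypican, averaged 1.12 ± 0.14 FPKM in the combination, 0.944 ± 0.245 in doxorubicin, 2.07 ± 0.74 in IN10018 and 3.24 ± 0.97 in DMSO (SD, n = 3 each), and was called lower in the combination (−0.98 ± 0.21, adjusted p = 0.0085 by limma) and in doxorubicin (−1.10 ± 0.21, adjusted p = 0.0076). GPC1, another glypican, averaged 20.3 ± 7.6 FPKM in the combination and 8.29 ± 1.28 in DMSO (1.13 ± 0.26, adjusted p = 0.010), and DDR1, a receptor kinase for collagen, 3.51 ± 0.80 and 1.78 ± 0.25 FPKM (0.68 ± 0.19, adjusted p = 0.026). Under median-ratio scaling GPC6 kept its call, and GPC1 (0.84) and DDR1 (0.46) did not.

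The median log2 fold changes of these lists in the combination against DMSO were 0.34 for the collagen enzymes, 0.22 for the proteases, 0.36 for the other matrix genes and 0.32 for the receptors, where the median of all genes was 0.20. Under median-ratio scaling these medians were 0.12, −0.04, 0.14 and 0.04, with −0.03 over all genes. With GC content and length corrected for they were 0.06, −0.03, 0.01 and −0.06, with −0.03 over all genes. That correction gave, in doxorubicin against DMSO, 2 higher and 6 lower proteases, 2 and 5 other matrix genes and 1 and 2 receptors. Of all 11301 genes, 1273 were then higher and 1171 lower. Against doxorubicin the combination gave 0 calls with limma in each of the 4 lists. Against IN10018 alone, where 14.6% of all genes were called higher and 1.43% lower, the combination was higher in 1 collagen enzyme, P3H2 (0.84 ± 0.20, adjusted p = 0.012 by limma), and lower in 0. Of the proteases 5 were higher, led by PLAU (1.69 ± 0.20), ADAMTS1 (1.47 ± 0.24) and MMP17 (0.66 ± 0.16), and 1 was lower, where median-ratio scaling gave 2 and 5 and MMP17 lost its call. Of all 11301 genes that scaling called 998 higher and 515 lower. CCN1 (1.60 ± 0.20) was the 1 call among the other matrix genes. Of the receptors 3 were higher, HMMR, a hyaluronan receptor (1.07 ± 0.21, adjusted p = 0.0043), GPC1 (1.01 ± 0.26) and DDR1 (0.64 ± 0.19), and under median-ratio scaling only HMMR of these kept its call.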

How the data were processed

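RNA of SK-OV-3 cells was sequenced from strand-directional libraries after 24 h of treatment. The authors deposited FPKM per gene, scaled to gene length and library size. TopHat, Cufflinks and Cuffdiff with hg38 are named in the submitters' processing notes, without versions in the sources used here. For each of the 24090 genes with values in 3 or more libraries, FPKM stood in whole-number ratios (relative tolerance 3e-12), and in 0 after each value was moved by up to 1e-06 of its size. The whole reads so recovered gave the depth. Gene positions, GC content and exon overlaps come from GENCODE release 29 (GRCh38).

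For 93 symbols with several rows the rows were added up, and the filter on low values asked for 1 FPKM or more in 3 or more libraries. limma 3.58.1 in R 4.3.3 fitted 1 mean per treatment to log2(FPKM + 1) over the 12 libraries (eBayes trend, residual df of 8, no replicate block). The added 1 draws log2 fold changes of genes near 1 FPKM toward 0. Over the alternatives COL17A1 in the combination against DMSO reached 1.26, and COL1A1 in doxorubicin against DMSO reached −1.25. Tests were two-sided and p-values were adjusted over the 11301 genes kept, in each of 6 comparisons. Errors are SD of FPKM over 3 libraries or standard errors of log2 fold changes, and an adjusted p is limma's throughout. FPKM of 12 libraries are printed for genes called in any comparison or averaging at least 10 FPKM, and for LAMB2. The LAMB2 values were added after they had been seen. Companion genes were those with the smallest adjusted p, up to 3 called per list and comparison. The matrix genes, the 4 companion lists and the marker lists were chosen with earlier results of these data known. Alternatives changed the pseudocount (0.1, 0.5), the filter (none, 5 FPKM), the scaling (median ratios, quantiles), the samples fitted, the replicate block, the weighting (voom on recovered reads) and each library in turn. A correction for GC content and length, also with the block, and the fit without the 3 libraries that stand apart were added after seeing the data. 1 of the 26 genes kept was tested and counted but is not reported here by name. The method was also run on simulated data, with noise drawn independently for each gene and library. That setting lacks the axis on which libraries of one treatment differed here, so it cannot vouch for the calls above. Files were read with Python 3.11.15, numpy 2.4.6 and pandas 2.3.3, and figures drawn with matplotlib 3.10.9.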

Additional observations from a re-analysis of the deposited data

How the results depend on the processing

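No log2 fold change of a matrix gene with an unadjusted p under 0.05 changed sign under the 24 alternatives. The number of matrix genes called in the combination against DMSO, 9, became 5 with a pseudocount of 0.1 or without the filter on low values, and 4 with only the groups compared, with the replicate block or without the 3 libraries that stand apart (4 to 10 when 1 library was left out). That of doxorubicin against DMSO, 3, became 6 with median-ratio or quantile scaling, 7 with only the groups compared, 5 with voom, 8 once the 3 libraries that stand apart were left out, and 9 with the correction for GC content and length, with or without the block (2 to 7 when 1 library was left out, with 7 calls without combination replicate 1 and 5 without DMSO replicate 2). That of the combination against doxorubicin, 0, became 3 without the 3 libraries that stand apart (0 to 7 when 1 library was left out). Over all genes that count went from 0 to 1321. That of the combination against IN10018, 6, became 10 with the GC and length correction (4 to 8 when 1 library was left out). Over all genes that count went from 1815 to 2852. IN10018 against DMSO and the interaction stayed at 0. Fewer samples enter the fits with only the groups compared, and otherwise the cause was not tested. The sources used here do not say if replicate numbers pair the libraries. Deviations from the group means of the 18 same-numbered pairs correlated at −0.68 to 0.72, with 5 of them over 0.1. Those of the 36 pairs with different numbers correlated at −0.65 to 0.79, with 17 over 0.1. The block otherwise left 3 calls in doxorubicin against DMSO and 6 in the combination against IN10018. Quantile scaling gave 3 higher and 3 lower calls in the combination against DMSO and 3 higher and 4 lower against IN10018, and in doxorubicin against DMSO it gave 1 and 5, as did median ratios. Counts over all genes also moved, some by over 1.5 times. In doxorubicin against DMSO, 906 became 556 with the block and 3021 without the 3 libraries that stand apart. It became 2444 with the GC and length correction, 1319 with median ratios, 1489 with quantiles, 1161 with only the groups compared and 928 with voom. In the combination against DMSO, 1761 became 914 with only the groups compared and 1279 with the block. It became 1590 with a pseudocount of 0.1 and 1567 without the 3 libraries that stand apart. Depth limits the genes that were not kept, whose absence was not shown.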
